A study of Mus musculus with 394 samples.

Results

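The nuclear genes for subunits of the mitochondrial respiratory chain and ATP synthase were followed through the striatal, midbrain and sorted synaptosome libraries of a study of mRNA translation in mouse midbrain dopamine neurons. Members were taken by gene name: Ndufa, Ndufb, Ndufc, Ndufs and Ndufv genes with a number (complex I), Uqcr genes (complex III), Cox4 to Cox8 genes (complex IV) and Atp5 genes (ATP synthase), without names that mark pseudogenes or opposite-strand transcripts. The rule gave 80 of 48531 genes in the UMI counts (37 of complex I, 8 of complex III, 18 of complex IV and 17 of ATP synthase) and 85 of 55487 genes in the full-length counts (40, 8, 19 and 18). Complexes were assigned by name alone, so Ndufa4 and Ndufa4l2 count in complex I and Atp5sl in ATP synthase, whichever complex their proteins serve. By gene identifier 78 members were found in both and 87 in either. The full-length members include 4 annotated processed pseudogenes (Cox6c2, Ndufa11b, Ndufb4c and Ndufs6b), and many members have near-identical copies elsewhere in the genome, so that reads of a member and its copies can be split between rows.

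The study captured tagged ribosomes (RiboTag, an HA-tagged ribosomal protein that Cre recombinase switches on) from dissected regions and compared the anti-HA immunoprecipitate (IP) with the tissue lysate (Input). All RiboTag mice were heterozygous for the RiboTag allele. Cre+ mice also carried the DAT IRES-Cre allele, in which Cre is driven from the dopamine transporter locus, so that tagged ribosomes are made in dopamine neurons, and Cre- littermates without it gave a measure of RNA bound without the tag. The striatum, which holds dopamine axons, was taken at P0, P7, P14, P21, P31, P90 and 10 to 14 months in both genotypes (138 samples), and the substantia nigra pars compacta (SNc), ventral tegmental area (VTA) and substantia nigra pars reticulata (SNr) at 10 to 14 months (60 UMI libraries of both genotypes, and 18 full-length libraries of Cre+ mice, 3 for each region and fraction). Synaptosomes were sorted by fluorescence (FASS) at P90 to P150 from DAT-Cre mice with a viral EGFP reporter (DAT:EGFP, striatum) and from knock-in mice with a VGLUT1 VENUS fusion (striatum, and separately cortex), and compared with all small particles sorted from the synaptosome preparation without a gate on fluorescence (12 pairs by the sample number of the study's sample sheet, called preparations here). The paper used several DAT-Cre mice for FASS and does not say how many went into each preparation. UMI totals ran from 11405 to 1796764 in the striatum, from 3606 to 380689 in the midbrain and from 13072 to 299856 in the synaptosomes, and full-length totals from 3059148 to 15762443 reads. The paper kept part of each RiboTag lysate as Input, so an IP and an Input sample can come from the same mouse. The RiboTag fits have no term for the mouse, and tests over both fractions can count a mouse more than once. The labels name no mice, so p-values measure the spread between these samples, and in bulk samples fewer cells of a type cannot be told apart from less RNA per cell.

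Complex I passes electrons from NADH to ubiquinone, complex III passes them from ubiquinol to cytochrome c, complex IV passes them to oxygen, and ATP synthase uses the proton gradient that the other complexes build. Each is assembled in the inner mitochondrial membrane from subunits of nuclear genes and, in all of these complexes, a few subunits encoded in mitochondrial DNA. The nuclear genes are translated on cytosolic ribosomes, which the RiboTag can capture, while the mitochondrially encoded transcripts are translated inside the organelle. Dopamine neurons carry very long, highly branched axons with a large demand for ATP.

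The promoters of these genes are known for binding NRF1, GABP and YY1, and RefSeq promoters (GRCm38.p6, 250 bases before to 50 after the start) were matched for 68 of 87 members. The letters GCGCANGCG (NRF1) stood on either strand in 19 of 68 members (27.9%) and in 7.03% of 27025 genes with a promoter (9.63% of 17492 protein-coding ones). The letters CCGGAAG (the ETS core that GABP binds) stood in 15 members (22.1%, against 9.93% and 12.9%) and AAGATGGCG (YY1) in 8 (11.8%, against 1.64% and 2.14%). At least 1 of them stood in 35 members (51.5%) in 16.5% of all promoters and in 21.8% of protein-coding ones. The NRF1 letters were in 8 of 18 ATP synthase promoters and in 1 of 13 complex IV promoters. A match is only a match of letters. A promoter of each complex is shown, with the matched letters in capitals, because these genes recur below: Uqcrc1 of complex III (chr9:108936398-108936697, plus strand), Atp5o of ATP synthase (chr16:91931581-91931880, minus strand), Cox8a of complex IV (chr19:7217567-7217866, minus strand) and Ndufs7 of complex I (chr10:80249199-80249498, plus strand).
Uqcrc1: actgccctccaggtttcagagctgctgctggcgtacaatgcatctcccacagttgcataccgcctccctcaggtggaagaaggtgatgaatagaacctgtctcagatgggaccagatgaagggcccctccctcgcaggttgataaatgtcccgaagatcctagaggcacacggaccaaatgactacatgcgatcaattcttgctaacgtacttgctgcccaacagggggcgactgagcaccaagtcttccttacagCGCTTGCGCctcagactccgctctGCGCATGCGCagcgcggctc
Atp5o: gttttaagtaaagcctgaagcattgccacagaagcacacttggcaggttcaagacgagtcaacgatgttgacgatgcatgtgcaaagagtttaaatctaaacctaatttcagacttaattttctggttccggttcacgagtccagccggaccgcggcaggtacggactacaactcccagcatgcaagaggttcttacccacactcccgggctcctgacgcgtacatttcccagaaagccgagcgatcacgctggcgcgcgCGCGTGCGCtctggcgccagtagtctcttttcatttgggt
Cox8a: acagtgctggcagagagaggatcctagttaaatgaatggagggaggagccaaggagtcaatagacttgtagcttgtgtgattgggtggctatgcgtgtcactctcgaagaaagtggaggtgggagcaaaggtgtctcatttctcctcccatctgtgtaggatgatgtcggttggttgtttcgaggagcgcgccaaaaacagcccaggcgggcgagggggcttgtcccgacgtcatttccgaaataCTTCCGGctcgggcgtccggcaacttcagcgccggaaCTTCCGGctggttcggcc
Ndufs7: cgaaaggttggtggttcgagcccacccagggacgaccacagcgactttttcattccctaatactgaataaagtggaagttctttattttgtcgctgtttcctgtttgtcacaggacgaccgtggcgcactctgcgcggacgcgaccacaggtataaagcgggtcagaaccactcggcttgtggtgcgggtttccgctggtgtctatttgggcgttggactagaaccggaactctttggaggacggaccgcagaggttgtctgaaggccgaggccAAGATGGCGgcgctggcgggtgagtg
Uqcrc1 holds overlapping NRF1 letters after its start, Cox8a holds the ETS core in the reverse direction, and Ndufs7 holds the YY1 letters.

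In the striatum the members moved with age as a group in the early weeks. They rose from P0 to P21 far more often than they fell: 27 of 79 tested members were higher at P21 and 2 were lower, against 13.9% and 14.2% of all 19334 genes. The median log2 fold change of the members was 0.24, beside 0.00 for all genes. All complexes took part, with 13 of 37 tested complex I members, 3 of 8 of complex III, 7 of 17 of complex IV and 4 of 17 of ATP synthase higher. The change stood beside a wider one in cell makeup: all 8 oligodendrocyte markers, all 8 microglia markers, 7 of 8 astrocyte markers and 7 of 8 spiny neuron markers rose, and their part in the result was not tested.

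Cox8a, a small subunit of complex IV, gave the lowest adjusted p. In Input its level ran from 617 to 1412 CPM (counts scaled to the size of the library, median 882, n = 12) at P0 and from 1369 to 2393 (median 2106, n = 13) at P21, with medians of 1129 at P7 and 1823 at P14 between them. Every P21 sample but the lowest lay above the highest P0 sample. Over both fractions it rose by 1.25 ± 0.11 (SE) on the log2 scale (edgeR adjusted p = 6.15e-21). Among the muscle-type isoforms of complex IV, which are known from heart and skeletal muscle, Cox6a2 rose by 2.61 ± 0.44 (edgeR adjusted p = 3.32e-07), Cox7a1 by 1.59 ± 0.57 (edgeR adjusted p = 0.0246) and Cox8b by 2.13 ± 0.59 (edgeR adjusted p = 0.0293). Cox6a2 was scarce: it was at 0 CPM at the median of P0 Inputs and at 34.5 at P21. The common subunits Cox5b and Cox6c rose by 0.51 ± 0.11 and 0.50 ± 0.11.

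In complex I, the accessory subunits Ndufa13, Ndufa3 and Ndufa1 led, with rises of 0.75 ± 0.10, 0.63 ± 0.12 and 0.64 ± 0.14. Ndufa13 was at 230 to 575 CPM (median 428, n = 12) in P0 Inputs and at 566 to 885 (median 751, n = 13) at P21, and the groups overlapped only at their edges. Of the core subunits that carry the iron-sulfur clusters or flavin, and beside a complex I median of 0.22, these rose: Ndufs1 by 0.48 ± 0.17, Ndufs7 by 0.40 ± 0.12 and Ndufv1 by 0.34 ± 0.13. Ndufc2, an accessory subunit, went the other way and fell by 0.37 (SE 0.13, edgeR adjusted p = 0.0203). In complex III, Uqcr11 rose by 0.77 ± 0.13 (edgeR adjusted p = 1.21e-07) and Uqcrq by 0.27 ± 0.10. In ATP synthase, the alpha subunit Atp5a1 rose by 0.35 ± 0.10, Atp5k by 0.35 ± 0.11 and Atp5sl, known for a role in complex I assembly despite its name, by 1.10 ± 0.30, while the stalk subunit Atp5o fell by 0.32 (SE 0.10, edgeR adjusted p = 0.0107).

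**Figure D1:**
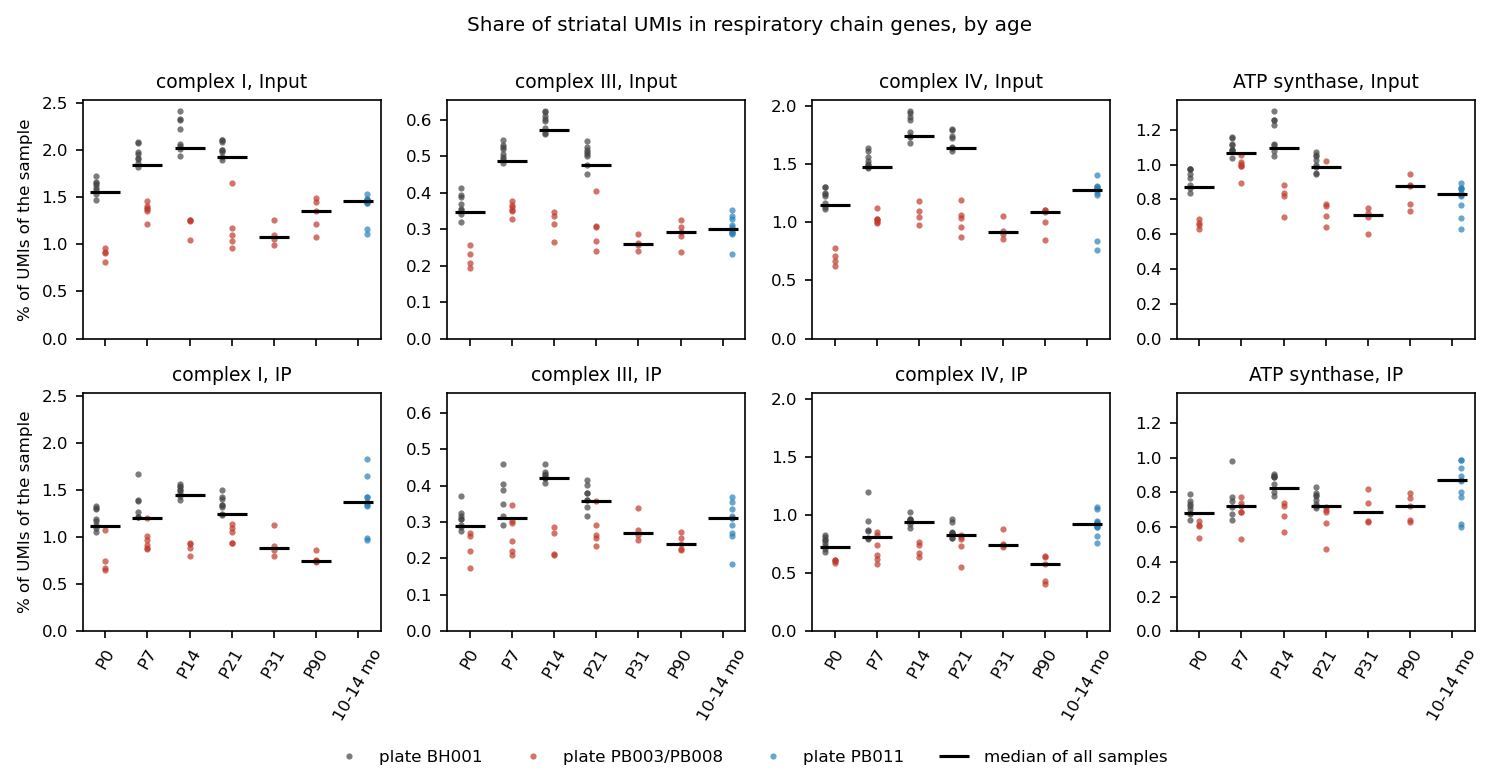
Percent of each striatal sample's UMIs (vertical axes, from 0) in members of each complex by age (horizontal axes), in Input (top) and IP (bottom). Points are samples, coloured by sequencing plate, and bars are medians. In Input, samples of plate BH001 lie mostly above those of plates PB003 and PB008 of the same age, with overlap for ATP synthase at P7 and P21.

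Among Inputs, plates differed more than P0 and P21 did within a plate. In Input the members together took 3.80 to 4.36% of UMIs at P0 and 4.94 to 5.53% at P21 on plate BH001 (n = 8 each), and 2.27 to 2.63% at P0 (n = 4) and 2.72 to 4.27% at P21 (n = 5) on plates PB003 and PB008. P0 and P21 did not overlap on either. The rise was not steady: Input medians on plate BH001 were 4.20% at P0, 5.02% at P7, 5.74% at P14 and 5.21% at P21. On plates PB003 and PB008 they were 2.51, 3.76, 3.51 and 3.14%, then 2.98% at P31 and 3.64% at P90. On plate BH001 alone 52 members were higher at P21 and 0 were lower, and on plates PB003 and PB008 alone 6 were higher and 0 lower. With plate as a covariate 32 were higher and 3 lower, with TMMwsp scaling 51 were higher and 0 lower, and with the size factors taken without respiratory chain and ribosomal protein genes 18 were higher and 6 lower. In Input alone 17 members differed, in IP alone 7 and in Cre- mice alone 15.

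Over all ages, 66 of 79 members differed with age in the test over every age term (edgeR), against 58.8% of all genes, and 11 on plates PB003 and PB008 alone. P31 and P90 were measured only on plates PB003 and PB008, which also hold samples of P0 to P21. The reported fit has no plate term, so it partly mixes plate with these ages. Samples of 10 to 14 months were all on plate PB011, so there plate and age cannot be told apart. With that limit, 15 members were higher at 10 to 14 months than at P90 and 6 were lower, against 8.64% and 9.49% of all genes. Atp5l, a membrane-sector subunit of ATP synthase, was at 351.7 to 663.7 CPM in Input at 10 to 14 months (n = 10), above the highest of 208.8 at P90 (n = 5), and rose by 1.62 ± 0.19 (edgeR adjusted p = 5.21e-12). The complex I subunit Ndufb4 rose by 1.50 ± 0.25, the proton channel gene Atp5g2 by 1.69 ± 0.42, Uqcrh by 0.66 ± 0.16 and Cox6c by 0.68 ± 0.14. Among the 6 lower members, Atp5b fell by 0.87 (SE 0.13), Uqcrc2 by 0.63 (SE 0.16), Atp5a1 by 0.52 (SE 0.13), Ndufv1 by 0.54 (SE 0.17) and Atp5c1 by 0.43 (SE 0.14), and Ndufv1 stood at 0.04 in Input alone. Of 59 members with under 600 coding bases 15 were higher and 0 lower, and of 10 with 900 or more 0 were higher and 5 lower.

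In the striatum the difference between IP and Input went with the coding length of the members. Of 79 tested members 16 were higher and 43 lower in IP than in Input, averaged over genotypes, against 24.2% and 11.9% of all genes, and the median member stood at -0.24 beside 0.10 for all genes. Scaling moved this split to 8 higher and 62 lower with TMMwsp, which put the median of all genes at -0.26, and to 10 and 57 with total UMIs, and on plates PB003 and PB008 alone it was 12 and 13. Of 10 members with a coding sequence of 900 bases or more, 9 were higher in IP and 1 (Ndufv3) was lower, and of 59 under 600 bases, 2 were higher and 40 lower. Across the 79 members the Spearman correlation of coding length and log2 fold change was 0.69, and across 14647 genes 0.41, with all points from the same libraries.

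Uqcrc1, a core protein of complex III, was at 123 to 1372 CPM (median 751, n = 68) in IP and at 136 to 435 (median 242, n = 70) in Input, and was higher by 1.61 ± 0.07 (edgeR adjusted p = 1.68e-52). Uqcrc2, the other core protein, was higher by 1.30 ± 0.07. In complex I the largest subunit Ndufs1 was higher by 1.49 ± 0.09, Ndufa10 by 1.22 ± 0.07, Ndufa9 by 1.19 ± 0.08, Ndufv1 by 0.84 ± 0.08 and Ndufs7 by 0.60 ± 0.07. The catalytic beta subunit Atp5b was higher by 0.89 ± 0.06 and Atp5f1 by 0.53 ± 0.07. Small subunits were lower: Cox7c at -0.65 ± 0.06, Cox6c at -0.58 ± 0.06, Atp5e at -0.73 ± 0.07, Uqcrb at -0.70 ± 0.08 and Ndufc1 at -0.52 ± 0.07. Cox8a stood at -0.22 ± 0.06, and at 0.07 on plates PB003 and PB008 alone. Cox4i2, the less abundant isoform of the Cox4 pair, was the 1 complex IV member higher in IP (0.99 ± 0.35), and stood at -0.04 on plate BH001 alone.

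A difference of this between genotypes was not detectable at this depth. In the interaction of genotype and fraction 0 of 79 members and 0% of all genes passed (edgeR), 2 members had an unadjusted p under 0.05, and DESeq2 called 0. The median member interaction was -0.03, beside 0.05 for all genes. Averaged over genotypes, 7 of 7 tested dopamine neuron markers were higher in IP than in Input, where 24.2% of all genes were. As with every other gene, none of these markers passed the interaction. By qRT-PCR of adult striatal IPs, the paper could not detect Slc6a3 and found no significant difference in Th between Cre+ and Cre- mice.

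**Figure D2:**
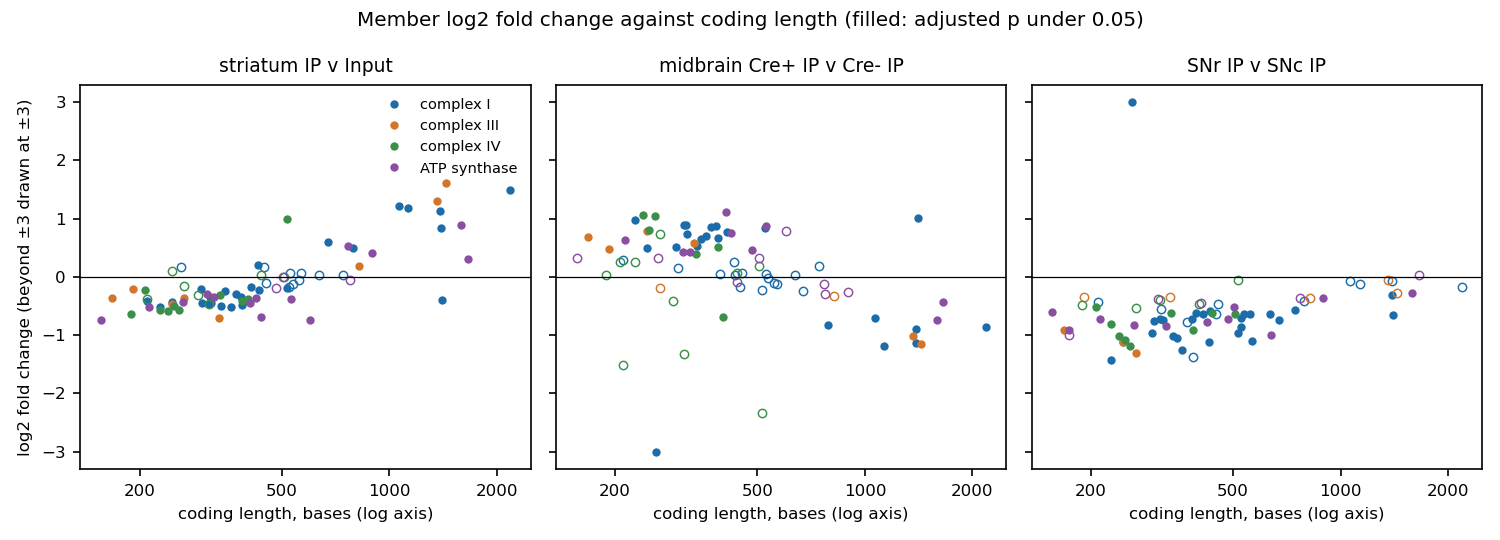
Log2 fold change of each member (vertical axis) against its coding length in bases (horizontal log axis) for striatal IP against Input, midbrain Cre+ IP against Cre- IP (both UMI) and SNr IP against SNc IP (full-length). Filled points passed an adjusted p of 0.05, and values beyond 3 in size are drawn at 3. Members of 900 bases or more lie above 0 in the striatal IP and below 0 in the midbrain Cre+ IP, except Ndufv3 in both.

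In the full-length midbrain libraries, which are of Cre+ mice only, the members were higher in IP than in Input, with the highest member median in the SNc. There 69 of 78 tested members were higher in SNc IP than in SNc Input and 1 was lower, against 16.8% and 14.8% of all 17235 genes, with a member median of 1.23 beside 0.08. In the VTA 38 were higher and 0 lower, against 15.5% higher of all genes (member median 0.41), and in the SNr 28 were higher and 0 lower, against 17.8% (member median 0.39). Scaled to total reads, which lifted the median of all genes to 0.24 and 0.50, 59 members were higher in VTA and 63 in SNr. Dopamine neuron markers showed the capture: all 8 were higher in IP than Input in each region, while all 8 oligodendrocyte markers were lower in VTA and SNr and 7 in SNc.

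The UMI libraries also held Cre- IPs, in which no ribosome is tagged. In Cre+ mice 15 of 78 members were higher in IP than in Input in SNc (1.44% of all genes), 3 in VTA (2.22%) and 2 in SNr (1.82%), and in Cre- mice 13 were higher in SNc (2.97%), 9 in VTA (1.67%) and 11 in SNr (4.07%). The difference between genotypes in this effect passed for 16 members in SNc (15 higher in Cre+ mice and 1 lower, against 1.59% of all genes) and for 4 in VTA (2 and 2, against 2.56%). In SNr it passed for 0 (1.68% of all genes, 18 members at an unadjusted p under 0.05, by edgeR).

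In the SNc, 35 of 39 complex I members, 8 of 8 of complex III, 10 of 15 of complex IV and 16 of 16 of ATP synthase were higher. The complex I subunit Ndufa2 was at 96.3, 126 and 123 CPM in SNc IP and at 27.6, 32.5 and 34.8 in Input, a difference of 1.87 ± 0.16 (edgeR adjusted p = 3.84e-09). Cox6b1, a complex IV subunit on the intermembrane side, was at 113, 182 and 200 CPM in IP and at 41.7, 49.8 and 46.0 in Input (1.85 ± 0.16, edgeR adjusted p = 4.46e-09). Neither gene's groups overlapped, and in both the first SNc IP library was the lowest of its group.

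The complex III subunits Uqcrq and the Rieske iron-sulfur protein Uqcrfs1 were higher by 1.57 ± 0.17 and 1.24 ± 0.15. Atp5o.1, the row of Atp5o in the full-length annotation, was higher by 1.83 ± 0.13, Atp5g3 by 1.76 ± 0.14, Cox7b by 1.69 ± 0.14 and Ndufs4 by 1.61 ± 0.15. The complex IV subunits Cox5b and Cox4i1 stood at 1.59 ± 0.18 and 1.00 ± 0.12. Of the core and catalytic members, Ndufs8 stood at 1.29 ± 0.17, Atp5c1 at 1.24 ± 0.11, Atp5a1 at 1.15 ± 0.10 and Atp5b at 0.84 ± 0.09. The long core members Uqcrc1 (0.76 ± 0.11) and Ndufs1 (0.70 ± 0.13) had the smallest differences of those named here. In the VTA, Ndufb6 (1.09 ± 0.21), Atp5o.1 (1.01 ± 0.13), Ndufs4 (0.95 ± 0.15), Cox7b (0.81 ± 0.14) and Uqcr11 (0.78 ± 0.18) led, with Atp5b at 0.29 ± 0.09. In the SNr, Atp5a1 (1.07 ± 0.10), Ndufv1 (0.83 ± 0.12), Uqcrc2 (0.83 ± 0.13), Ndufa10 (0.61 ± 0.11) and Cox7b (0.60 ± 0.14) were among those higher.

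**Figure D3:**
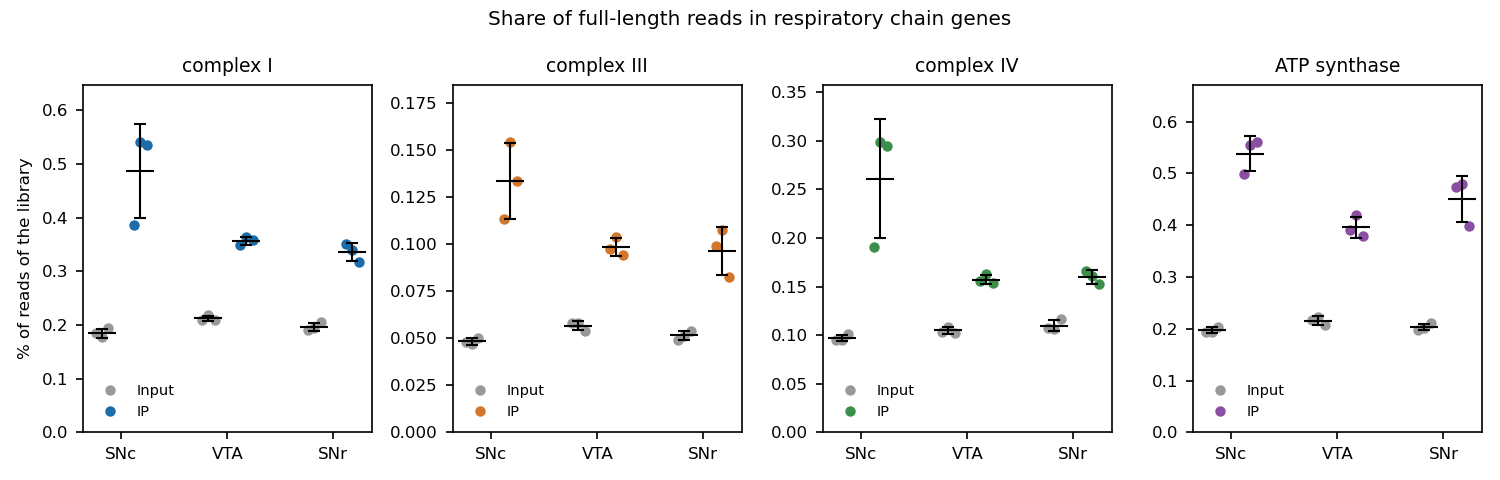
Percent of each full-length library's reads (vertical axes, from 0) in members of each complex, in Input (grey) and IP (coloured) of SNc, VTA and SNr. Points are the 3 libraries of a group, and bars are mean ± SD. SNc IP libraries took 1.19 to 1.55% of reads over all members, above VTA IP and SNr IP, and Inputs took 0.514 to 0.608%.

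Between regions, members were lower in SNr IP and VTA IP than in SNc IP. Of 78 members 49 were lower in SNr IP than in SNc IP and 1 was higher, against 9.18% and 5.73% of all genes, and 47 were lower in VTA IP than in SNc IP and 0 were higher, against 12% lower of all genes. Member medians were -0.64 and -0.63, beside -0.01 and -0.15 for all genes. In the tissue 0 members differed between the Inputs of SNr and SNc (6.95% of all genes; 8 members at an unadjusted p under 0.05, 1 called by DESeq2) or of VTA and SNc (0.453% of all genes; 7 members, 0 by DESeq2), all by edgeR. With the Inputs subtracted, 38 members were lower in SNr than in SNc, against 3.97% of all genes, and 35 lower in VTA than in SNc, against 4.93%. Both comparisons share the SNc libraries. Without the second SNc IP library 25 members differed between VTA IP and SNc IP, and without the third 31. Markers of other cells moved too: in SNr IP 7 of 8 spiny neuron, 5 of 6 endothelial and mural and 3 of 8 astrocyte markers were higher than in SNc IP, and in VTA IP all 8 oligodendrocyte, all 8 microglia and 7 of 8 astrocyte markers were lower. Summed GABAergic neuron markers (Gad1, Gad2, Slc32a1 and Pvalb) took 0.0732 to 0.116% of reads in SNc IP, beside 0.0948 to 0.111% in SNc Input. In SNr IP they took 0.0497 to 0.0751% and in VTA IP 0.0133 to 0.0199%. Cytosolic ribosomal protein genes took 0.304 to 0.429% of reads in SNc IP, 0.282 to 0.302% in VTA IP and 0.273 to 0.281% in SNr IP, and dopamine neuron markers 0.813 to 1.15%, 1.30 to 1.41% and 0.789 to 1.13%. The part of these markers and genes in the result was not tested.

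Cox6b1 was at 68.3, 73.7 and 74.2 CPM in SNr IP and at 85.6, 85.7 and 80.2 in VTA IP, all below the lowest SNc IP library. It was lower than in SNc IP by -1.19 ± 0.16 in SNr and -0.97 ± 0.16 in VTA (edgeR adjusted p = 2.03e-05 and 8.27e-05). The complex III hinge subunit Uqcrh stood at -1.30 ± 0.19 in SNr against SNc, Ndufc2 at -1.26 ± 0.19, Ndufa11 at -1.13 ± 0.16, Uqcrq at -1.13 ± 0.17 and Cox7b at -1.01 ± 0.13. In VTA against SNc, Atp5mpl stood at -1.04 ± 0.17, Cox5b at -0.98 ± 0.18, Cox6a1 at -0.80 ± 0.13, Uqcr11 at -0.74 ± 0.18, Ndufs8 at -0.70 ± 0.16 and Ndufs7 at -0.62 ± 0.13. Of 57 tested members with under 600 coding bases 40 were lower in SNr IP and 38 in VTA IP than in SNc IP, and of 10 with 900 or more 3 were lower in each. Among core subunits, in SNr against SNc, Atp5b stood at -0.28 ± 0.09 and Ndufs8 at -0.63 ± 0.16, and in VTA against SNc, Uqcrc1 stood at -0.32 ± 0.11 and Atp5b at -0.55 ± 0.09.

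SNr and VTA IPs were closer to each other, with 3 members higher in SNr (15% of all genes) and 5 lower (9.33%), and the number called ranged from 2 to 13 when libraries were left out. Atp5a1 (0.28 ± 0.10) and Atp5b (0.27 ± 0.09) were higher in SNr, and Uqcrh (-0.63 ± 0.19), Ndufc2 (-0.56 ± 0.18), Atp5o.1 (-0.44 ± 0.13), Ndufs4 (-0.40 ± 0.14) and Ndufb10 (-0.34 ± 0.12) lower.

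Ndufa4l2, the hypoxia-induced paralog of Ndufa4, went against the rest. It was at 0, 0.230 and 0 CPM in SNc IP, at 0.320, 0.188 and 0 in VTA IP and at 5.22, 4.75 and 2.75 in SNr IP, with 0.716, 1.50 and 1.34 in SNc Input. It was the 1 member lower in SNc IP than Input (-3.70 ± 1.42, edgeR adjusted p = 0.0494), and stood 5.54 ± 1.48 higher in SNr IP than in SNc IP and 4.50 ± 1.37 higher than in VTA IP. In the UMI midbrain libraries it had 0 UMIs in every Cre+ IP and was among the members lower than in Cre- IP. These fitted values rest on groups mostly at 0 and depend on the prior count. Endothelial and mural markers summed to 0.0249 to 0.0313% of reads in SNr IP, against 0.00542 to 0.0111% in SNc IP and 0.000948 to 0.00512% in VTA IP, with 5 of 6 called higher in SNr than SNc, and their part in the result was not tested.

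The UMI libraries did not give these region calls. In UMI libraries of Cre+ mice 0 of 78 members differed between SNr IP and SNc IP (0.3% of all genes, 18 members at an unadjusted p under 0.05) or between VTA IP and SNc IP (0.518% of all genes, 3 members), by edgeR. The member medians had the same sign, at -0.32 and -0.20 beside 0.14 and 0.07 for all genes. Members took 5.05 to 7.22% of UMIs in SNc IP, 4.19 to 5.08% in VTA IP and 4.47 to 5.10% in SNr IP (n = 4 each), and the groups overlapped at their edges.

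Isoforms were compared per kilobase of exon. In SNc IP, Atp5a1 was the highest member by this measure at 451 ± 39.4 RPKM (reads per kilobase of exon and scaled library size, SD, n = 3), followed by Cox4i1 at 332 ± 44.5 and Atp5b at 332 ± 5.01, which did not differ beyond their spread. The order of Atp5a1 and Atp5b rests on the length used. Exons held 3135 and 4237 bases, and coding sequences 1659 and 1587. Without a length, Atp5a1 was at 1554, 1366 and 1321 CPM and Atp5b at 1398, 1390 and 1430. In isoform pairs the ubiquitous form was the higher one in SNc IP: Cox4i1 was at 332 and Cox4i2 at 2.25 ± 3.38, Cox6b1 at 233 ± 64.7 and Cox6b2 at 1.44 ± 0.782, and Cox7a2 at 112 ± 34.1 and Cox7a1 at 5.62 ± 3.95. Atp5g3 was at 129 ± 13.5 and Atp5g1 at 9.34 ± 1.84, which encode the same mature proton channel protein with different targeting peptides. Their exons differ in length too (2181 and 4912 bases), and in CPM Atp5g3 was at 250, 286 and 308 and Atp5g1 at 39.2, 42.3 and 56.1.

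Against Cre- IPs, Cre+ IPs of the UMI midbrain libraries also split the members by length, with short members mostly higher and long ones mostly lower. The striatal split had the opposite sign but is another contrast, of IP against Input averaged over genotypes. The signs of these splits therefore do not compare midbrain IPs with striatal IPs. Of 78 members 31 were higher in Cre+ IP than in Cre- IP and 12 lower, against 4.51% and 12.5% of all 14671 genes, averaged over the regions, with a member median of 0.25 beside -0.41. With TMMwsp scaling the split was 41 and 6, and with total UMIs 40 and 8. By region, 26 were higher and 5 lower in SNc (1.68% and 3.33% of all genes), 8 and 4 in VTA (2.05% and 3.2%) and 2 and 2 in SNr (1.01% and 2.62%). Of the 10 members with long coding sequences 1 was higher and 9 lower, and of 58 short ones 29 were higher and 2 lower. The Spearman correlation of coding length and log2 fold change was -0.44 across the 78 members and -0.28 across 12123 genes.

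Cox6b1 was at 1458, 2208, 1770 and 1727 CPM in SNc Cre+ IP and at 581 to 919 (median 738, n = 6) in SNc Cre- IP. The SNc groups did not overlap, while the lowest SNr Cre+ IP sample (920.2) lay below the highest SNr Cre- one. Over the regions it was higher by 1.04 ± 0.13 (edgeR adjusted p = 1.29e-12). Atp5g1 (1.11 ± 0.15), Cox7b (1.06 ± 0.14), Ndufv3 (1.01 ± 0.16), Ndufc1 (0.97 ± 0.16), Atp5o (0.87 ± 0.14), Ndufs6 (0.85 ± 0.15) and Uqcrq (0.78 ± 0.15) were higher too. Uqcrc1 was at 243, 242, 232 and 355 CPM in SNc Cre+ IP and at 482 to 1051 (median 628, n = 6) in SNc Cre- IP, and was lower by -1.16 ± 0.16 (edgeR adjusted p = 2.85e-11). Ndufa9 (-1.20 ± 0.21), Uqcrc2 (-1.01 ± 0.19), Ndufv1 (-0.90 ± 0.18), Ndufs1 (-0.87 ± 0.24) and Atp5b (-0.73 ± 0.14) were lower, and so was the short Cox7a2l (-0.70 ± 0.19), which joins complexes III and IV. Ndufv3 is the long exception that was higher here and lower in the striatal IP.

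With each genotype's Input subtracted, 21 members were higher and 10 lower, against 2.79% and 5.38% of all genes (30 and 2 with TMMwsp). Ndufv3 (1.06 ± 0.23), Cox6b1 (0.95 ± 0.19) and Atp5o (0.94 ± 0.20) stayed higher and Uqcrc1 (-1.26 ± 0.23) lower.

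**Figure D4:**
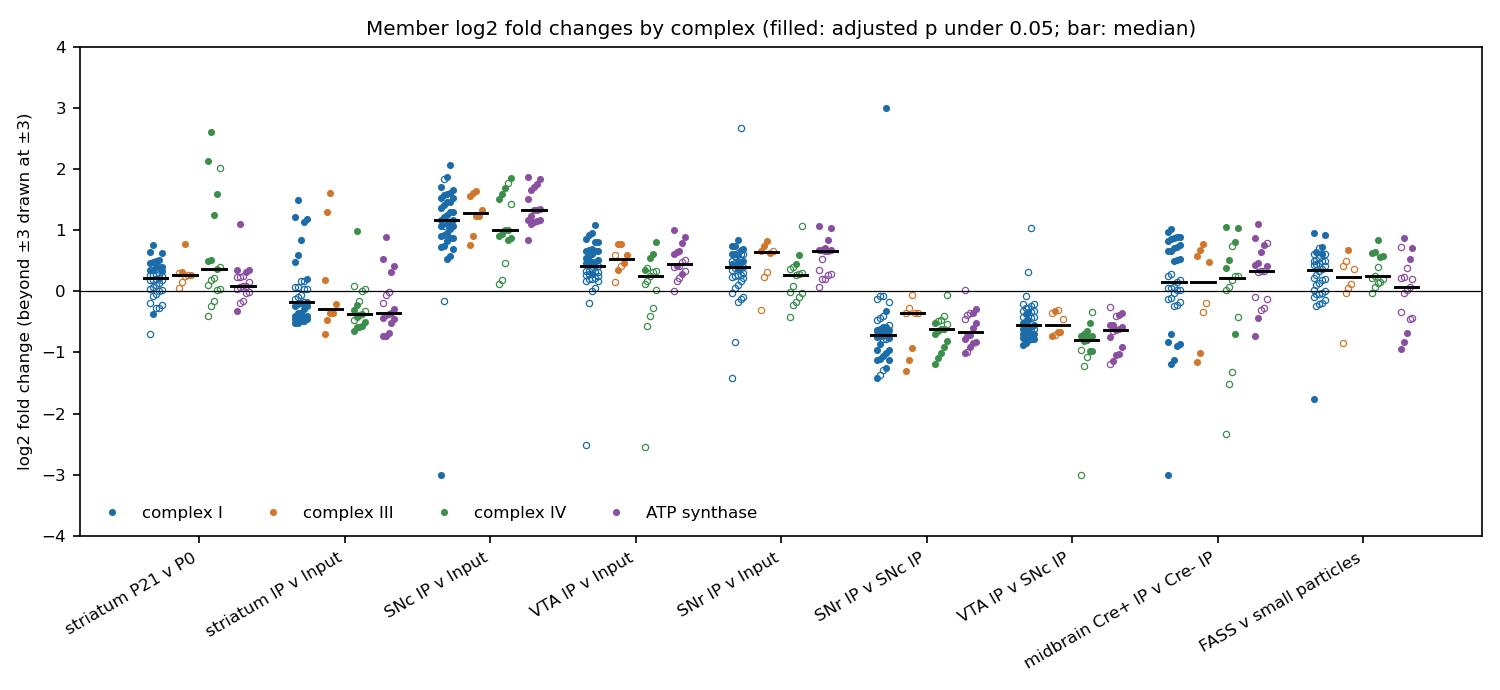
Log2 fold changes of members (vertical axis, values beyond 3 in size drawn at 3) by comparison (horizontal axis), coloured by complex. Filled points passed an adjusted p of 0.05 and bars are medians. The medians of all complexes lie above 0 in SNc IP against Input and below 0 in SNr IP and VTA IP against SNc IP.

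Respiratory chain genes took a larger share of the UMIs in FASS samples than in small particles. The totals differed, at 13072 to 39742 UMIs in FASS and 76117 to 299856 in small particles, so that shares and not amounts are compared. The members took 2.30 to 5.43% of UMIs in FASS samples (median 3.97%, n = 12) and 1.74 to 2.51% in small particles (median 2.15%, n = 12), and were higher in FASS in 12 of 12 preparations. By gene 14 of 74 tested members were higher and 4 lower, against 1.52% and 21.1% of all 11001 genes, with a member median of 0.23 beside -1.16. Here too the called members split by coding length. All 14 higher members had 192 (Uqcr10) to 558 coding bases (Ndufb8), and the 4 lower had 768 (Atp5f1) to 2181 (Ndufs1). Scaled to total UMIs 36 were higher and 1 lower, and with TMMwsp 5 and 4. Complex IV took 1.15 to 2.63% against 0.748 to 1.02%, higher in 12 of 12 preparations, complex I was higher in 11 and ATP synthase in 10. Cytosolic ribosomal protein genes rose alongside, from a median of 6.81% to 11.8%, and the summed astrocyte markers were lower in FASS in 12 of 12 preparations, and the part of either was not tested. No dopamine neuron marker had enough UMIs here to be tested.

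Cox5b, a nuclear subunit that binds zinc, was at 457 to 718 CPM (median 525) in small particles and at 706 to 2081 (median 923) in FASS, higher in 12 of 12 preparations (0.85 ± 0.19, edgeR adjusted p = 0.000255). Cox4i1 was at 1588 to 2128 (median 1767) and 2161 to 3726 (median 2655), without overlap (0.64 ± 0.16). Ndufa3 rose most in complex I (0.96 ± 0.19, edgeR adjusted p = 4.84e-05), followed by Ndufb7 (0.92 ± 0.25) and Ndufa2 (0.73 ± 0.20). Cox8a (0.63 ± 0.16), Cox6b1 (0.58 ± 0.19), Uqcr10 (0.68 ± 0.21) and the ATP synthase subunits Atp5d (0.88 ± 0.26), Atp5l (0.71 ± 0.26) and Atp5h (0.53 ± 0.19) rose as well. The 4 lower members were Ndufs1, at 55.3 to 352 CPM (median 117) in small particles and 0 to 99.2 (median 22.3) in FASS (-1.76 ± 0.41, edgeR adjusted p = 0.000622), Atp5a1 (-0.95 ± 0.23), Atp5f1 (-0.83 ± 0.27) and Atp5c1 (-0.68 ± 0.26).

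**Figure D5:**
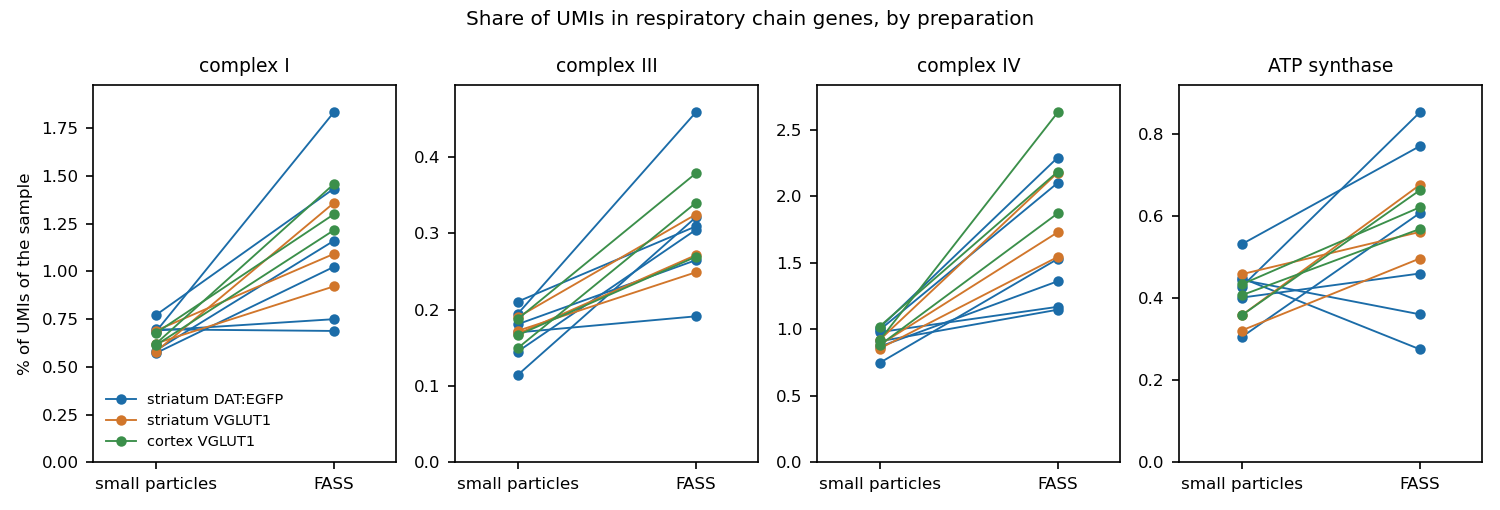
Percent of UMIs in members of each complex (vertical axes, from 0) in small particles and in FASS samples. Lines join the pair of a preparation, coloured by the kind of synaptosome. Complex IV is higher in FASS in 12 of 12 preparations and ATP synthase in 10.

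A difference in this effect was not detectable between kinds of synaptosome. For cortex against striatum (VGLUT1) 0 of 74 members passed (0% of all genes; 3 members at an unadjusted p under 0.05), and for DAT:EGFP against VGLUT1 in the striatum 0 passed (0.0182% of all genes; 2 members), by edgeR, and DESeq2 called 0 in both. Within 1 kind, 5 members passed for DAT:EGFP (3 higher and 2 lower, 8.08% of all genes, 6 pairs), 0 for striatal VGLUT1 (0.854% of all genes, 10 members at an unadjusted p under 0.05, 3 pairs) and 1, which was higher, for cortical VGLUT1 (3.44% of all genes, 3 pairs), by edgeR.

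Outside the named members, the mitochondrially encoded subunits went the other way from the nuclear ones in the midbrain IPs. In full-length libraries they took 2.29 to 2.81% of reads in Inputs and 0.193 to 0.624% in SNc IP, 0.112 to 0.164% in VTA IP and 0.176 to 0.335% in SNr IP, and 9 of 10 tested were lower in SNc IP than Input. In the striatum 8 of 13 rose from P0 to P21 with the nuclear members. The nuclear genes of complex II, which has no mitochondrially encoded subunit, were higher in SNc IP in 4 of 4 cases (median 0.66), and 11 of 31 tested assembly factors were higher and 0 lower (median 0.58). Of 8 regulators of mitochondrial biogenesis 0 were higher in SNc IP and 3 were lower, by edgeR, where 16.8% and 14.8% of all genes were.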

How the data were processed

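The authors deposited raw counts per gene: UMI counts from barcoded 3' libraries aligned with STAR and collapsed by UMI, and read counts from full-length stranded total RNA libraries cleaned of rRNA with Bowtie2, aligned with STAR and counted with featureCounts on GRCm38.p6 (STAR 2.6.7a and featureCounts 1.6 in the submitters' processing notes). Here libraries of a striatal sample on several plates were summed, and so were the 3 libraries of each small particle sample. UMI counts were fitted over all genes with at least 10 UMIs and DESeq2 size factors, and full-length counts after filterByExpr with TMM, by edgeR 4.0.16 quasi-likelihood tests with Benjamini-Hochberg adjustment at 0.05 in R 4.3.3. DESeq2 1.42.0 was an alternative. An error beside a log2 value is a standard error. The fits were also run on counts simulated from their own means and spread with known changes. Those counts held no plate or pair effects, so this checks the fits only under their own assumptions. Named members are core subunits of complexes I and III and ATP synthase, the complex IV subunits Cox4i1, Cox5a and Cox5b, and isoform pairs. Up to 3 called members of lowest p per complex and direction, and those against their complex, are named too. Members and lists were chosen with earlier results of these data known. FASS and small particle samples were paired by the sample number of the study's sample sheet, which the GEO labels do not give. The deviations of the 12 pairs correlated at -0.178 to 0.581 (median 0.132), over 0.1 in 6, and the reported fit has no term for the pair. Synaptosome RiboTag IPs were not analysed here, and values of 1 member are not reported here.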

Additional observations from a re-analysis of the deposited data

Results flagged for a closer look

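Shares of counts in a complex were compared within each group of at least 4 samples, and 10 of 170 had a lowest or highest sample far from the rest, where chance gives about 1 in 20. In the striatum these were complex IV in a Cre+ P21 IP (0.552%, nearest 0.796%, total 11405 UMIs), ATP synthase in a Cre- P7 IP (0.978%, nearest 0.773%), all members in a Cre+ P7 IP (2.21%, nearest 2.89%, total 23816 UMIs) and complex I in a Cre+ IP of 10 to 14 months (0.966%, nearest 1.34%, total 30735 UMIs). In the midbrain they were complex I in a VTA Cre+ IP (1.71%, nearest 2.01%), complex III in an SNr Cre+ IP (0.317%, nearest 0.419%) and complex I in an SNr Cre- Input (1.54%, nearest 1.76%). The VTA Cre- Input library with 3606 UMIs was low for complex I (0.638%), complex IV (0.555%) and all members (1.80%).

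Differences between groups were tested as interactions with edgeR. The effect of fraction differed between genotypes for 31 members in the UMI midbrain libraries. With the Inputs subtracted, 39 members differed between SNr and SNc and 35 between VTA and SNc.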

How the results depend on the processing

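Of 3918 checks of named members under another setting, 3550 kept direction and side of the threshold, 359 kept direction only and 9 reversed. Of 497 counts of called members 450 were within 1.5 times the reported count. For the test over all ages the count went from 66 to 11 on plates PB003 and PB008 alone, 31 in IP alone, 37 in Cre- mice alone and 26 for the single contrast of P90 and P0, and the split was 44 and 31 with TMMwsp and 35 and 9 with plate as a covariate. For P21 against P0 (29) it was 51 with TMMwsp, 6 on plates PB003 and PB008, 52 on plate BH001, 17 in Input, 7 in IP and 15 in Cre- mice, and for 10 to 14 months against P90 (21) 13 in IP and 7 in Cre- mice. Striatal IP against Input (59) gave 25 on plates PB003 and PB008. Total reads gave 59 for VTA and 63 for SNr IP against Input, and DESeq2 or its size factors 1 between SNr and SNc Inputs. UMI libraries, added after seeing the data like the single contrast and the subtraction of Inputs, gave 15 for SNc, 3 for VTA and 2 for SNr IP against Input and 0 for each pair of region IPs, and SNr against VTA gave 0 with Inputs subtracted. FASS (18) gave 9 with TMMwsp, 37 with total UMIs, and 5, 0 and 1 within DAT:EGFP, striatal VGLUT1 and cortical VGLUT1. The cause of these moves was not tested.

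With 1 library left out, counts ran from 25 to 43 for VTA IP against Input (25 without VTA IP replicate 2), 25 to 54 for VTA against SNc IP, 2 to 13 for SNr against VTA IP (2 without VTA IP replicate 1 or 2, 3 without replicate 3, 13 without SNc IP replicate 1) and 0 to 2 for SNr against SNc Input (2 without SNr IP replicate 3). They ran from 68 to 70 for SNc and 23 to 33 for SNr IP against Input, 34 to 54 for SNr against SNc IP and 14 to 21 for FASS.

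Reversed values were Cox8a at 0.0662 (plates PB003 and PB008) and Cox4i2 at -0.0389 (plate BH001) for striatal IP against Input, Ndufv1 at 0.0417 for 10 to 14 months in Input alone, and in UMI libraries Atp5b at 0.22 (SNr against SNc IP), Ndufs8 at 0.0129 (VTA against SNc IP), Ndufb10 at 0.19 and Uqcrh at 0.00087 (SNr against VTA IP), Uqcrc1 at -0.24 (SNc IP against Input), and Atp5b at -0.16 (VTA IP against Input).

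With the replicate block of preparation pairs, FASS called 17 members (14 higher and 3 lower) and neither interaction called any (0). No paired analysis was possible because the labels name no mice for the striatal and midbrain samples.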
